A study of Homo sapiens with 118 samples.

Results

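Vorinostat, a hydroxamate inhibitor of histone deacetylases, was applied to HepaRG cells at 5 concentrations, and the results below concern the last step of that series, from C4 (10.929 µM) to C5 (23.5 µM), which raised the concentration 2.15-fold. The comparison used the 3 C4 and the 3 C5 libraries, 6 of the 118 libraries of the series with a column in the count table, which covers 8 inhibitors. HepaRG is an established human liver cell line that can be differentiated in culture; here differentiated cells were exposed for 72 h with daily renewal of the medium, all vorinostat wells were lysed on 1 plate, and replicates 1, 2 and 3 of every group came from 3 different HepaRG batches. Transcripts were read by TempO-Seq, in which pairs of detector oligonucleotides are ligated on their target RNA in the lysate and counted by sequencing. The 9 vorinostat libraries at C1 (0.404778 µM), C2 (1.214333 µM) and C3 (3.643 µM) carried the same treatment at lower concentrations and were used to sort the genes by what had happened before the last step. Solvent control libraries were not analysed here, so C1 was the reference, and a response complete at C1 would not be seen. A feature below is 1 probe of the panel, its level is given in CPM (counts per 1e+06 of the library size after trimmed-mean scaling), and CPM values of different probes were not compared with each other.

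Histone deacetylases remove acetyl groups from lysines of histone tails and of many other proteins, and hydroxamates block them by binding the zinc ion of the catalytic site. Blocking them raises histone acetylation and changes the transcription of many genes in both directions. In liver cells the output of plasma proteins and drug-metabolising enzymes is held up by a small set of hepatocyte transcription factors and nuclear receptors, whereas metallothioneins, chaperones, glutathione enzymes and chemokines belong to stress programmes that liver cells switch on when metals, misfolded proteins, electrophiles or cytokines accumulate.

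Libraries held 1328649 to 3043958 counts at C4 and 1061359 to 1879287 at C5, a mean ratio of 0.623 with overlapping ranges (exact permutation test, two-sided, p = 0.3, the smallest possible value with 3 against 3 being 0.1). Features with at least 5 counts numbered 12162 ± 901 at C4 and 11056 ± 583 at C5 (SD, n = 3, p = 0.2 by the same exact permutation test). On the first principal component of the 15 vorinostat libraries, which held 56.5% of the variance, C4 replicate 3 (24.7) lay nearer to the C3 libraries than C4 replicates 1 (45.2) and 2 (53.1) did, and C5 replicate 3 stood apart from the other C5 libraries on the second component (46.7 against 13.1 and 15.7). Where a feature named below was run without single libraries and lost its call without either of these, its log2 change in that run is given. Some list members named below were not run in this way, so how far their calls rest on these libraries is not known. The labels name the cells as liver progenitors; at C1 the summed hepatocyte markers stood at 33611 to 42242 CPM and the summed biliary or progenitor markers at 65.5 to 78.8 CPM. Summed hepatocyte markers fell from 12361 to 15439 CPM at C4 to between 3706 and 6926 CPM at C5, with 8 of 9 tested marker features called falling. Of all features tested, 10.8% were called falling and 5.92% rising from C4 to C5, the shares beside which each marker count stands. Biliary or progenitor markers summed to 166 to 178 CPM at C4 and 87.9 to 107 CPM at C5 (2 of 4 tested features falling), with CFTR and EPCAM at 3 counts or fewer in every C4 and C5 library. Fibroblast or stellate markers summed to 196 to 225 CPM at C4 and 139 to 169 CPM at C5 (2 of 8 falling, COL1A2 and THY1 at 3 counts or fewer throughout), endothelial markers to 11.9 to 35.2 and 2.61 to 9.94 CPM (the 1 tested feature falling, CDH5, CLEC4G, PECAM1 and STAB2 at 3 counts or fewer), and blood cell markers to 29.8 to 40.02 and 17.0 to 38.2 CPM (0 of 3 called by edgeR or DESeq2, 1 falling at an unadjusted p under 0.05, with PTPRC, CD3E, LYZ and MARCO at 3 counts or fewer). In lysates of whole wells, fewer cells of a type and less RNA per cell cannot be told apart.

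Of 11631 features tested, 689 (5.92%) rose and 1251 (10.8%) fell from C4 to C5 by edgeR's quasi-likelihood test, a call needing at least a 1.5-fold change and p under 0.05 after Benjamini-Hochberg adjustment. At C5, 130 of the falling features were at 3 counts or fewer in every library, where a fitted fold is no measure, whereas 7 of the rising ones had been at that level at C4. Outside those, 728 falling and 265 rising features changed at least 2-fold, and 190 and 36 at least 4-fold. The median log2 change was -1.28 among falling features (-1.22 with features at that floor set at their bound) and 0.91 among rising ones (0.90). The C4 and C5 libraries did not overlap for 649 of the rising and 1133 of the falling features (15.1% and 17.7% of all features tested did not overlap in those directions), and all 3 HepaRG batches moved the same way for 674 and 1194 of them (22.3% and 26% of all features). P-values here reflect the spread between HepaRG batches, estimated over all 15 vorinostat libraries and not over C4 and C5 alone. A fit of the C4 and C5 libraries alone gave 679 rising and 846 falling features. The median over all features tested was -0.03 on the log2 scale. Without C4 replicate 3 the counts were 382 rising and 841 falling, and with every library thinned to the size of the smallest they were 643 and 1066.

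Called features were sorted by their history. Against C1, 2 features (0.0172%) were called at C2, 370 rising and 451 falling (3.18% and 3.88%) at C3, 1812 and 1943 (15.6% and 16.7%) at C4 and 2636 and 2893 (22.7% and 24.9%) at C5. Late-only features were not called at C2, C3 or C4 against C1 and had moved by less than 1.5-fold (0.585 on the log2 scale) at C4, and they numbered 368 rising (3.16% of all features tested) and 479 falling (4.12%). Reversed features had been called in the other direction at C4 against C1, with 51 that fell and then rose (0.438%) and 109 that rose and then fell (0.937%). A further 214 features (1.84%) continued to rise and 539 (4.63%) continued to fall, and 180 called features fitted none of the 3 classes. Late-only features were 53.4% of the rises and 38.3% of the falls, with median log2 changes of 0.86 and -1.10 (-1.07 with features at the floor set at their bound), and at C5 310 and 416 of them were also called against C1 in the same direction. Of 321 called features whose gene had another tested probe, the other probe was called in the same direction for 163, in the opposite one for 0 and not called for 158. The limit of 0.585 is a convention: AHNAK2 (0.58) and ARAP2 (-0.58) lay just inside it at C4 against C1, and PGBD1 and TERF1 (both 0.59) just outside. The C4 libraries enter both contrasts, which are therefore not independent. The C3 against C1 contrast, which shares no library with the last step, was already called in the C4 direction for 12 of the 51 features that fell then rose and for 48 of the 109 that rose then fell. Without C4 replicate 3, 193 rising and 289 falling features met the late-only rule, and 182 and 264 of these were among the 368 and 479; all 368 and the 478 falling ones still tested kept their sign.

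**Figure D1:**
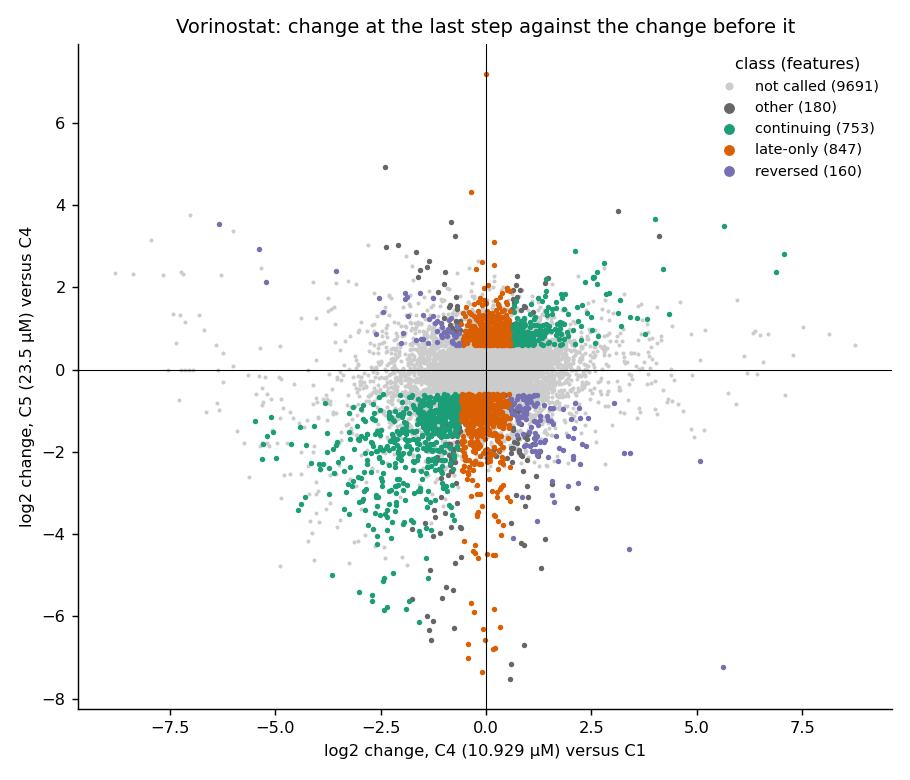
Each point is 1 of the 11631 features tested, with the log2 change from C1 to C4 on the horizontal axis and the log2 change from C4 to C5 on the vertical axis, coloured by class. Late-only features form the vertical band within 0.585 of 0, continuing features fill the lower left and upper right, and the 160 reversed features lie in the upper left and lower right; the axes share the C4 libraries, and the most extreme points are features with 3 counts or fewer in a group, whose fitted change is no measure of size.

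The 2 largest late-only rises among abundant features were GCLC and ODC1, enzymes that set the supply of glutathione and of polyamines, the first of which rose 3.96-fold. GCLC, the catalytic subunit of the enzyme that starts glutathione synthesis, stayed between 91.7 and 119 CPM on average from C1 to C4 and its libraries read 137, 123 and 90.6 CPM at C4 and 401, 490.3 and 485 CPM at C5 (log2 change 1.99 ± 0.18 (SE), adjusted p 3.05e-10). ODC1, ornithine decarboxylase, the first enzyme of polyamine synthesis, read 408, 409 and 299 CPM at C4 and 1303, 1623 and 1476 CPM at C5 through 1 probe (log2 change 1.98 ± 0.16 (SE), adjusted p 4.88e-11). The lowest C5 library was above the highest C4 library for both genes. This ODC1 probe was at 265 CPM at C1 and had moved by 0.49 at C4, under the 1.5-fold limit although its adjusted p was 0.0159, and a second ODC1 probe, counted as continuing, went from 81.2 ± 13.1 to 371 ± 40.9 CPM (SD, n = 3). MAFK, a small MAF protein that pairs with NRF2 or BACH1 on DNA, read 184, 177 and 204 CPM at C4 and 430.3, 492 and 539.9 CPM at C5 (log2 change 1.37 ± 0.15 (SE), adjusted p 2.31e-08). RNF114, a ubiquitin ligase, rose from 92.7 ± 26.6 to 231 ± 4.56 CPM, RMC1, a lysosomal trafficking regulator, from 128 ± 16.4 to 309 ± 12.3 CPM, and INTS13, a subunit of the Integrator complex, from 128 ± 5.58 to 304 ± 44.9 CPM. For these 3 genes too, no C5 library overlapped a C4 library. Those 6 had the largest late-only rises among features averaging at least 100 CPM over the 15 libraries, a cut chosen after the values were seen; the next gene was chosen with no such floor. SBSN, suprabasin, a secreted protein of stratified epithelium, read 11.1, 7.36 and 13.0 CPM at C4 and 40.1, 56.0 and 97.2 CPM at C5 (log2 change 2.62 ± 0.38 (SE), adjusted p 5.33e-06). From lower levels rose TRIM36, a ubiquitin ligase of the TRIM family, at 0.741, 3.15 and 1.58 CPM at C4 and 20.1, 18.8 and 13.0 CPM at C5 (log2 change 3.11 ± 0.75 (SE), adjusted p 0.00301), and the mucin-like MUCL3, at 0.741, 5.95 and 2.85 CPM at C4 and 23.7, 20.4 and 17.0 CPM at C5 (log2 change 2.55 ± 0.63 (SE), adjusted p 0.00377). TSC22D2 and LINS1 rose by 2.43 (adjusted p 0.0107) and 2.04 (adjusted p 0.0107) on the log2 scale. The TSC22D2 call was lost without C4 replicate 3 (2.38), C5 replicate 3 (1.87) or batch 3 (1.82), the log2 change without the library being given in parentheses. The LINS1 call was lost without C4 replicate 1 (1.69), C4 replicate 3 (1.80), C5 replicate 3 (1.69), batch 1 (1.76) or batch 3 (1.44). A batch here means all 5 libraries of 1 replicate number. The TRIM36 call was lost without batch 1 (2.73) and the MUCL3 call without batch 1 (2.08).

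The late-only falls included drug-metabolising and membrane proteins that had kept their level up to 10.929 µM. AOX1, aldehyde oxidase, a cytosolic drug-oxidising enzyme, averaged 632, 694, 803 and 551 CPM at C1 to C4, and its libraries read 539, 486 and 629 CPM at C4 and 159, 174 and 106 CPM at C5 (log2 change -1.91 ± 0.16 (SE), adjusted p 1.71e-10). PTCHD4, a patched-related membrane protein, read 185, 161 and 192 CPM at C4 and 29.2, 31.9 and 22.2 CPM at C5 (log2 change -2.68 ± 0.19 (SE), adjusted p 1.71e-12). IL1R2, the decoy receptor that binds interleukin-1 without signalling, read 145, 133 and 157 CPM at C4 and 33.7, 36.1 and 32.0 CPM at C5 (log2 change -2.09 ± 0.19 (SE), adjusted p 5.34e-10). In each of these genes every C5 library lay far under the lowest C4 library. ANXA4, a calcium-dependent phospholipid-binding annexin, fell from 194 ± 36.4 to 40.3 ± 17.1 CPM, and PLXDC2, a plexin-domain receptor, from 278 ± 68.9 to 64.2 ± 4.97 CPM. The probe named UGT1A8, for a UDP-glucuronosyltransferase, fell from 542 ± 56.7 to 106 ± 22.5 CPM (log2 change -2.36 ± 0.17 (SE), adjusted p 2.21e-12); the UGT1A enzymes share most of their exons, so the assignment of this signal to 1 of them is uncertain. These 6 genes, with no overlap between C4 and C5 libraries, kept their calls under every alternative run for them. A second group of late-only falls ended at the limit of detection. SCNN1A, the alpha subunit of the epithelial sodium channel, read 8.89, 9.46 and 14.3 CPM at C4 and 0, 1.05 and 0 CPM at C5, at least 5.21-fold lower when C5 is set at 3 counts per library. SLC14A1, a urea transporter, read 1.48, 9.46 and 13.9 CPM at C4 and 0, 0 and 0 CPM at C5 (at least 3.97-fold lower), SHISA9, an auxiliary protein of AMPA receptors, 11.1, 3.15 and 7.60 CPM at C4 and 0, 0 and 0 CPM at C5 (at least 3.49-fold lower), and PLCH1, a phospholipase C, 6.67, 3.85 and 7.60 CPM at C4 and 0, 0 and 0 CPM at C5 (at least 2.90-fold lower). The adjusted p of these 4 ranged from 9.4e-05 (SLC14A1) to 0.0011 (PLCH1). SLC14A1 had averaged 9.53 CPM at C1, 24.0 at C3 and 8.29 at C4. Its C3 against C1 log2 change of 1.34 was not called by edgeR (adjusted p 0.0922). A count of 0 at C5 allows a level of up to 2.83, 1.60 and 1.98 CPM of the unscaled total in replicates 1, 2 and 3, for counting error only. ONECUT1, also called HNF6, a hepatocyte transcription factor, read 5.93, 1.05 and 12.4 CPM at C4 and 0, 0 and 0.652 CPM at C5 (at least 3.09-fold lower, adjusted p 0.0036), and its call was lost without C4 replicate 3 (-3.51) or batch 3 (-5.77).

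**Figure D2:**
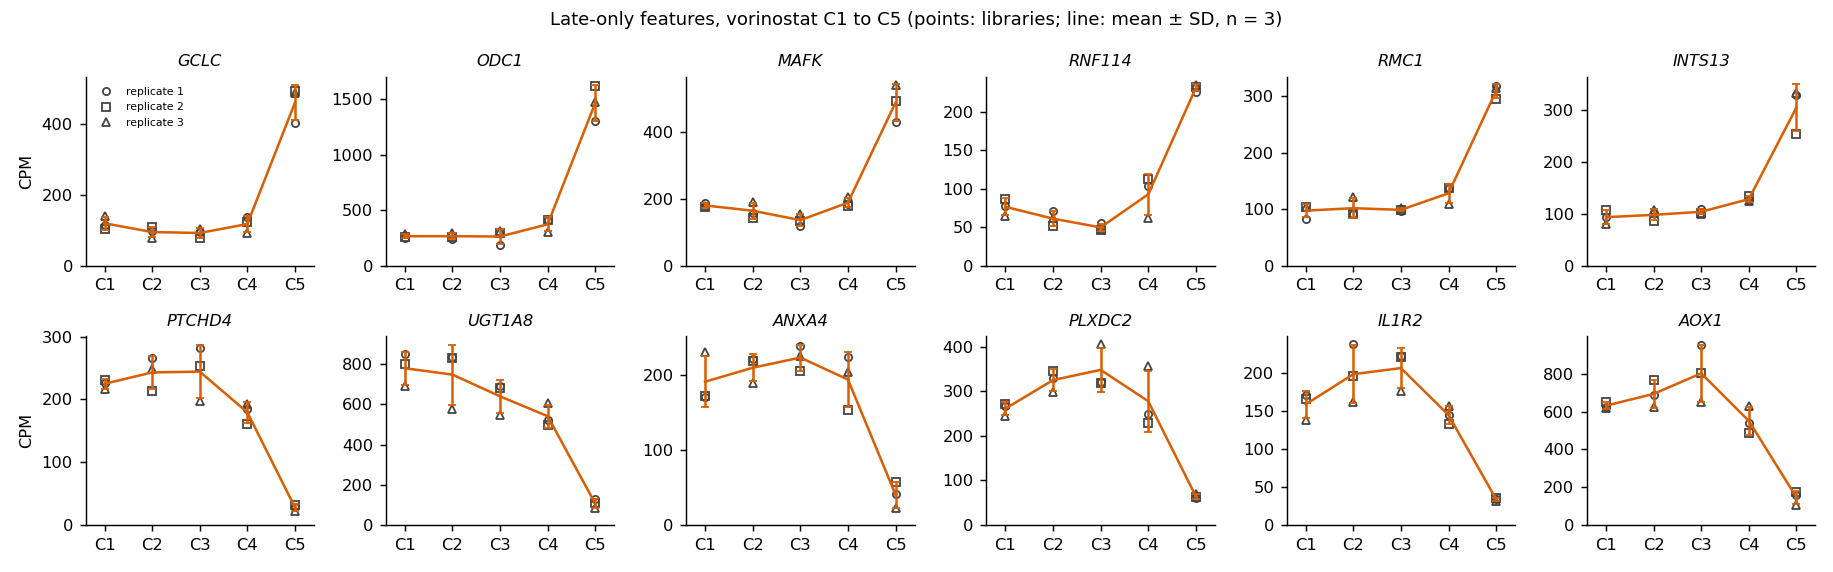
The 6 late-only rising and 6 late-only falling features with the largest changes among those averaging at least 100 CPM, plotted as CPM (linear axis from 0) against concentration group C1 to C5; open symbols are libraries by HepaRG batch and lines join means with SD bars, n = 3. C4 and C5 libraries are apart in all 12 panels, as in GCLC, from 90.6 to 137 CPM at C4 to 401 to 490 CPM at C5.

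Reversals were mostly rises that were undone. Of the 109 features that rose to C4 and then fell, 88 were no longer called against C1 at C5, 10 were still called above C1 and 11 had gone below it. UGT2B11, a steroid-conjugating glucuronosyltransferase, climbed from 17.9 CPM at C1 through 35.3 and 101 to 189.6 at C4, and its libraries read 224, 129 and 216 CPM at C4 and 16.4, 8.37 and 4.56 CPM at C5 (log2 change -4.35 ± 0.32 (SE), adjusted p 5.76e-12). UGT2B28 read 215, 147 and 195 CPM at C4 and 15.5, 13.6 and 3.91 CPM at C5 (log2 change -4.09 ± 0.29 (SE), adjusted p 1.73e-12), ending below its C1 mean of 119 CPM. The UGT2B genes are close in sequence, so these 2 probes may share targets. CYP1A1, the hydroxylase induced through the aryl hydrocarbon receptor, peaked at C3 at 104 CPM from 15.9 at C1, and then read 43.7, 43.4 and 102 CPM at C4 and 7.29, 15.7 and 17.6 CPM at C5 (log2 change -2.19 ± 0.37 (SE), adjusted p 6.11e-05). CYP4B1, a fatty acid and xenobiotic hydroxylase, had a like course, with 127 CPM at C1, 418 at C3, 226 at C4 and 27.1 at C5 (log2 change -3.11 ± 0.29 (SE), adjusted p 1.14e-09). SLC7A7, the light chain of a cationic amino acid transporter, read 901, 865 and 916 CPM at C4 and 217, 227 and 241 CPM at C5 (log2 change -1.97 ± 0.17 (SE), adjusted p 1.91e-10), against a C1 mean of 374 CPM. PPARGC1A, a transcriptional coactivator of mitochondrial biogenesis and gluconeogenesis, returned from 204 ± 26.4 to 67.4 ± 19.9 CPM, next to its C1 mean of 64.4 CPM (log2 change -1.61 ± 0.22 (SE), adjusted p 1.52e-06). MYC, the growth-promoting transcription factor, read 268, 255 and 182 CPM at C4 and 156, 133 and 95.9 CPM at C5 from a C1 mean of 89.5 CPM (log2 change -0.87 ± 0.20 (SE), adjusted p 0.00219). Every C5 library of these 7 genes lay below every C4 library. PRG4, lubricin, fell from 205 ± 25.4 to 63.5 ± 33.9 CPM, and ABCD2, a peroxisomal fatty acid transporter, from 32.2 ± 3.10 to 7.70 ± 5.62 CPM. MYOZ2, a sarcomeric Z-disc protein, had a log2 change of -2.22 (adjusted p 0.00155) and C5orf46 of -2.30 (adjusted p 0.00132), and groups did not overlap in any of these 4 genes, although the C5orf46 call was lost without batch 3 (-1.78).

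Fewer features fell and then recovered, and 40 of those 51 were no longer called against C1 at C5 while 11 were still below it. CXCL8, the neutrophil chemokine interleukin-8, had gone from 113 CPM at C1 to 46.6 at C4, and its libraries then read 35.6, 47.3 and 57.0 CPM at C4 and 171, 159 and 143 CPM at C5 (log2 change 1.73 ± 0.21 (SE), adjusted p 1.89e-07). CCL2, the monocyte chemoattractant, read 3.71, 2.80 and 7.92 CPM at C4 and 11.9, 14.1 and 28.0 CPM at C5 after a C1 mean of 19.1 CPM (log2 change 1.85 ± 0.50 (SE), adjusted p 0.00794), and its call was lost without C5 replicate 3 (1.38) or batch 2 (1.73). The groups did not overlap in either chemokine. RDH16, a retinol dehydrogenase of liver, regained little of its level: 120.4 CPM at C1, 3.40 ± 1.33 at C4 and 14.1 ± 2.43 at C5 (log2 change 2.12 ± 0.40 (SE), adjusted p 0.000246). HUS1, part of the checkpoint clamp loaded at DNA damage, went from 460.0 CPM at C1 to 266 at C3, and then read 304, 278 and 306 CPM at C4 and 532, 549.9 and 572 CPM at C5 (log2 change 0.90 ± 0.16 (SE), adjusted p 7.53e-05). DDI2, the protease that activates the transcription factor NRF1, read 209, 219 and 161 CPM at C4 and 339, 359 and 311 CPM at C5 after 400.5 CPM at C1 (log2 change 0.78 ± 0.16 (SE), adjusted p 0.000461). KDELR3, a retrieval receptor of the endoplasmic reticulum, recovered from 33.4 ± 8.84 to 61.5 ± 15.2 CPM of an earlier 207, and NUP58, a nuclear pore protein, from 114 ± 14.7 to 196 ± 36.9 CPM of an earlier 189.8. For these 5 genes every C5 library was above every C4 library, although the KDELR3 call was lost without batch 2 (0.80). CIDEB, ATF5 and DLL1 were called as reversals on very few counts. All 3 were at 3 counts or fewer in every C4 library, and their groups overlapped. At C5 CIDEB, a lipid droplet protein, read 2.73, 3.66 and 0 CPM (at least 1.51-fold higher), ATF5, a stress-response transcription factor, 0, 4.19 and 8.48 CPM (at least 3.00-fold) and DLL1, a Notch ligand, 0.912, 2.62 and 9.78 CPM (at least 3.15-fold). The CIDEB call was lost without C4 replicate 1 (3.32), C4 replicate 3 (2.94), C5 replicate 1 (3.42), C5 replicate 2 (2.7), batch 1 (3.22), batch 2 (4.34) or batch 3 (3.52) and with counts thinned (3.52). The ATF5 call was lost without C4 replicate 2 (2.27), C5 replicate 3 (2.1), batch 2 (2.349) or batch 3 (3.08) and with counts thinned (2.30). The DLL1 call was lost without C4 replicate 1 (2.36), C4 replicate 2 (2.66), C4 replicate 3 (2.21), C5 replicate 3 (1.18), batch 1 (2.79), batch 2 (2.99) or batch 3 (0.99) and also with the HepaRG batch as a block (2.32).

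**Figure D3:**
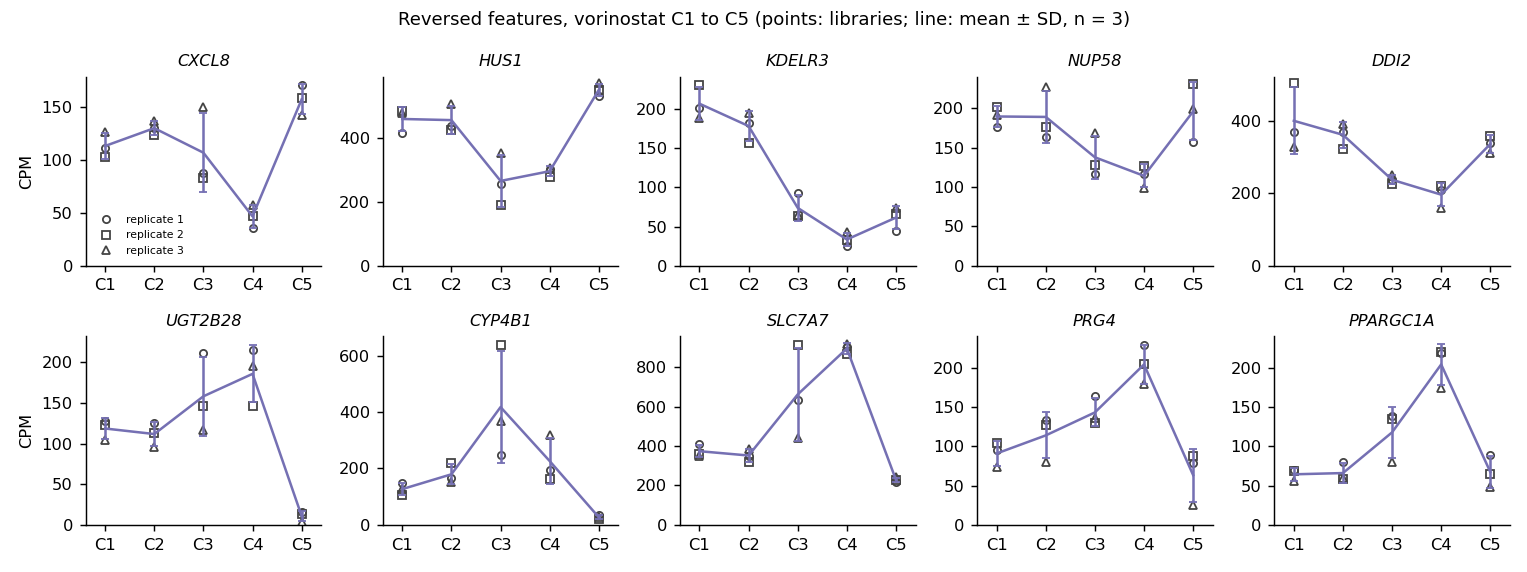
Reversed features with the largest last-step change among those averaging at least 100 CPM, 5 that fell then rose (upper row) and 5 that rose then fell (lower row), as CPM (linear axis from 0) against C1 to C5; open symbols are libraries by HepaRG batch, lines join means with SD bars, n = 3. UGT2B28 dropped from 147 to 215 CPM at C4 to 3.91 to 15.5 CPM at C5, and CXCL8 rose from 35.6 to 57.0 CPM to 143 to 171 CPM.

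Where the change at C4 carried on, TFPI2, a Kunitz-type protease inhibitor, read 218, 316 and 133 CPM at C4 and 847, 992 and 961 CPM at C5 (log2 change 2.07 ± 0.21 (SE), adjusted p 3.5e-09), and LCN2, lipocalin 2, an iron-siderophore carrier of the acute phase, read 273, 216 and 168 CPM at C4 and 775, 816 and 719 CPM at C5 (log2 change 1.83 ± 0.20 (SE), adjusted p 2.37e-08). Both had risen step by step, from C1 means of 35.7 and 63.2 CPM. ZER1, a substrate receptor of a cullin ubiquitin ligase, rose from 187 ± 58.4 to 593 ± 15.9 CPM. PRR20G, 1 of a set of near-identical gene copies and therefore uncertain in its assignment, read 0, 3.5 and 3.80 CPM at C4 and 6.38, 18.8 and 78.9 CPM at C5 (log2 change 3.65 ± 0.81 (SE), adjusted p 0.00145), and its call was lost without C5 replicate 3 (2.24) or batch 3 (2.60). Among continuing falls, UGT1A6, another glucuronosyltransferase with shared exons, read 178, 175 and 214 CPM at C4 and 16.4, 22 and 17.0 CPM at C5 (log2 change -3.33 ± 0.20 (SE), adjusted p 9.17e-14). A1CF, the RNA-binding cofactor of apolipoprotein B mRNA editing, fell from 34.7 ± 16.9 to 2.26 ± 2.86 CPM, TDO2, which opens the ring of tryptophan, from 167 ± 51.4 to 16.2 ± 15.3 CPM, and 1 probe of the alcohol dehydrogenase ADH1A from 44.9 ± 22.2 to 3.65 ± 0.915 CPM. XBP1, the transcription factor of the unfolded protein response, GRIA3, a glutamate receptor subunit, BID, a pro-apoptotic BCL2 relative, and POLE2, a DNA polymerase subunit, read 0 in all 3 C5 libraries after C4 means of 3.93, 2.90, 2.72 and 3.05 CPM, which sets bounds of at least 1.88-fold, 1.39-fold, 1.30-fold and 1.46-fold. The BID call was lost without C5 replicate 2 (-5.80), batch 2 (-5.08) or batch 3 (-5.74) and with its probes summed (-1.33). The GRIA3 call was lost without batch 3 (-5.23) and the POLE2 call without batch 1 (-5.14) or batch 3 (-5.59), where fitted values at 0 counts are no measure of size. The XBP1 call was kept in every run.

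Metallothioneins, small cysteine-rich proteins that bind zinc and copper, rose where they could be tested.
Of 7 tested features of the list, which also holds the metal-sensing factor MTF1 and the zinc exporter SLC30A1, 5 were called rising (all 5 metallothioneins tested) and none falling by edgeR or DESeq2 (0 falling at an unadjusted p under 0.05), with a median log2 change of 1.34 against -0.03 over all features.
The shares called were 71.4% rising and 0% falling, against 5.92% and 10.8% of all features. The other 7 of the 14 genes of the list did not pass the filter on low counts.
A gene can pass that filter through the groups where it is high, so the counts do not describe the family as a whole.
The counts of the lists below are likewise over the features that passed.
All 7 features of the metallothionein list had already been called rising at C4 against C1, as had 15.6% of all features.
To show the letters before these genes, the 250 bases before the transcription start of MT2A (chr16:56608334-56608583, plus strand, GRCh38.p14) and MT1X (chr16:56682220-56682469, plus strand), the 2 tested metallothioneins with a promoter in the RefSeq table, are printed with matches to the core of the metal response element, TGCNCNC on either strand, in capitals.

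MT2A: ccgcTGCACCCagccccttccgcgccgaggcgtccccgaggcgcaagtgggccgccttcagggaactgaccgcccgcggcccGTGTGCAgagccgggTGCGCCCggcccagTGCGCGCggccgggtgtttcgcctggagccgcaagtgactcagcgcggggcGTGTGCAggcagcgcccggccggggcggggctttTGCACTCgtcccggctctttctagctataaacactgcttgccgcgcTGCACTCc
MT1X: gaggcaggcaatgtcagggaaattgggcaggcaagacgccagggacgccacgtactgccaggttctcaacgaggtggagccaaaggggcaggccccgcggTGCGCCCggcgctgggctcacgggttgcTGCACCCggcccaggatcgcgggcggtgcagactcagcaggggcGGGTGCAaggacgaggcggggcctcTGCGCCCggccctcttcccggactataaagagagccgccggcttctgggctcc

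These stretches hold 7 and 4 matches. The core is short and was found in 55.2% of the 27305 promoters of the table (250 bases before to 50 after the start) and in 4 of the 4 list members with a promoter there, so a match is a description of letters only. MT2A read 897, 1085 and 610.2 CPM at C4 and 2161, 2312 and 2190.4 CPM at C5 from a C1 mean of 99.2 CPM (log2 change 1.36 ± 0.18 (SE), adjusted p 6.46e-07), and MT1X rose from 19.9 ± 6.77 to 45.8 ± 7.33 CPM (adjusted p 0.0438). MT1E read 54.8, 92.1 and 94.7 CPM at C4 and 189, 246 and 279 CPM at C5 (log2 change 1.54 ± 0.21 (SE), adjusted p 1.8e-06), MT1M 97.1, 91.1 and 89.0 CPM at C4 and 209.7, 211 and 278 CPM at C5 (log2 change 1.34 ± 0.20 (SE), adjusted p 7.28e-06) and MT1A 3.71, 12.6 and 4.75 CPM at C4 and 25.5, 60.7 and 65.9 CPM at C5 (log2 change 2.80 ± 0.51 (SE), adjusted p 0.000154). No C5 library overlapped a C4 library in any of the 5, and since the MT1 genes are near-identical, counts may be shared among their probes. MTF1 and SLC30A1 had log2 changes of 0.43 and 0.52 and did not pass the call.

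Among cytosolic chaperones, which refold proteins under the control of HSF1, the inducible HSP70 genes rose and HSPB8, BAG3 and HSF1 fell.
Of 24 tested features 3 rose and 3 fell (12.5% rising and 12.5% falling, against 5.92% and 10.8% of all features), and the median log2 change was 0.09.
The inducible HSP70 genes HSPA1A (chr6:31815293-31815542) and HSPA1B (chr6:31827488-31827737) are close copies, as their 250 upstream bases show (plus strand, GRCh38.p14, RefSeq), with the match to an inverted pair of heat shock element units, GAANNTTC, in capitals.

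HSPA1A: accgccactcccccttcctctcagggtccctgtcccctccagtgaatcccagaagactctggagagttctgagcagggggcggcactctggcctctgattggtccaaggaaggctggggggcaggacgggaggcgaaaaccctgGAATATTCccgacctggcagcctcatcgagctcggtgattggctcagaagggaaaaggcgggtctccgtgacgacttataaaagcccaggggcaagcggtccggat
HSPA1B: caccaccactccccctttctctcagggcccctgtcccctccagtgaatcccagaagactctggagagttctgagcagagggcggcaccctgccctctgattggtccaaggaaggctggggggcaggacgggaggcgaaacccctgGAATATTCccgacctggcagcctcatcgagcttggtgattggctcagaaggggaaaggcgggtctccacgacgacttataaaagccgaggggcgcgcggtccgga

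The same 8 letters, a palindrome and so the same on both strands, were found in 7 of 20 tested chaperone genes with a promoter in the table (35%) and in 6.87% of all promoters. HSPA1B read 58.5, 63.7 and 32.0 CPM at C4 and 84.8, 152 and 123 CPM at C5 (log2 change 1.24 ± 0.29 (SE), adjusted p 0.0021). HSPA1A read 6.67, 4.20 and 4.44 CPM at C4 and 13.7, 12.6 and 50.9 CPM at C5 (log2 change 2.38 ± 0.57 (SE), adjusted p 0.00302). Counts of the 2 copies are open to mixing, and the HSPA1A call was lost without C5 replicate 3 (1.39) or batch 3 (1.31). The third rise was HSPA2, at 1.92 (adjusted p 0.0133) on the log2 scale. Falling were HSPB8, a small chaperone of the autophagy route, at 300.1, 278 and 327 CPM at C4 and 122, 135 and 102 CPM at C5 (log2 change -1.33 ± 0.16 (SE), adjusted p 1.11e-07), its cochaperone BAG3 at -0.75 (adjusted p 0.016), and HSF1 itself at 44.5, 39.2 and 47.8 CPM at C4 and 15.5, 22 and 21.5 CPM at C5 (log2 change -1.13 ± 0.27 (SE), adjusted p 0.00264), a call lost without batch 1 (-1.004). HSPB8 and HSF1 were late-only and BAG3 was a rise undone, while HSPA8, HSP90AA1, HSP90AB1 and HSPH1 did not pass, at log2 changes between -0.14 and 0.30.

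Hepatocyte products had the largest share of falling features among the 19 lists. Of 35 tested features for secreted proteins and liver enzymes, 26 fell and none rose by edgeR or DESeq2 (1 rising at an unadjusted p under 0.05), with a median log2 change of -1.45 (-1.25 with features at the floor set at their bound). At C4 against C1, 34 had already been called falling, as had 16.7% of all features. The falling share at the last step was 74.3%, against 10.8% of all features. APOB, the structural protein of very-low-density lipoprotein, read 832, 558 and 924 CPM at C4 and 116, 86.3 and 48.3 CPM at C5 (log2 change -3.23 ± 0.20 (SE), adjusted p 1.98e-13). The fibrinogen chains fell together, FGA from 2096 ± 299.9 to 277 ± 112 CPM, FGB from 985 ± 214 to 156 ± 45.2 CPM and FGG from 2102 ± 127 to 389 ± 133 CPM (log2 changes -2.93, -2.66 and -2.44). TTR, transthyretin, was the 1 late-only member: it averaged 5849 CPM at C1 and 5151 at C4, and 1777 at C5 (log2 change -1.54 ± 0.18 (SE), adjusted p 1.71e-07). ALB, albumin, had a last-step log2 change of -1.04 (adjusted p 8.51e-05), after a drop from 19485 CPM at C1 to 4995 at C4. Among hepatocyte transcription factors and nuclear receptors, 6 of 21 tested features fell and none rose by edgeR or DESeq2 (0 rising at an unadjusted p under 0.05), with a median of -0.74 (-0.43 with features at the floor set at their bound). Here the falling share was 28.6%, against 10.8% of all features. HNF4G read 20.01, 6.65 and 25.7 CPM at C4 and 5.47, 4.71 and 1.30 CPM at C5 (log2 change -2.19 ± 0.47 (SE), adjusted p 0.00106), FOXA1, a pioneer factor, 9.63, 7.01 and 9.82 CPM at C4 and 2.73, 2.09 and 0.652 CPM at C5 (log2 change -2.27 ± 0.56 (SE), adjusted p 0.00355), and RXRA, the shared partner of many nuclear receptors, 29.6, 22.1 and 27.2 CPM at C4 and 8.20, 15.7 and 2.61 CPM at C5 (log2 change -1.50 ± 0.37 (SE), adjusted p 0.00363). The HNF4G call was lost without batch 3 (-1.26), the FOXA1 call without batch 3 (-1.77) and in a fit of C4 and C5 alone (-2.26) and the RXRA call without batch 1 (-1.37) or batch 3 (-1.02). The other 3 were ONECUT1, described above, NR1I2, the xenobiotic receptor PXR, at 0 in all C5 libraries after 1.83 ± 1.60 CPM, and PROX1 at -0.62 (adjusted p 0.0475). The C4 mean of NR1I2 lay under the C5 floor of 2.09 CPM (3 counts per library), so its called fall has no bound on its size. The summed hepatocyte markers fell in the same libraries by the amounts given above. Every gene of that marker sum also belongs to the first or the second of these lists. The sum is therefore no separate measure of the cells present, and the part of cell content in these results was not tested.

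Of targets of NRF2, the factor that answers electrophiles, 7 of 27 tested features fell and 2 rose (7.41% rising and 25.9% falling, the rising share being close to the 5.92% of all features and the falling one set against 10.8%), with a median of -0.29 (-0.23 with features at the floor set at their bound). GCLC rose as described, and SRXN1, sulfiredoxin, which repairs oxidised peroxiredoxins, read 392, 458 and 385 CPM at C4 and 1026, 1157 and 1119.7 CPM at C5 (log2 change 1.42 ± 0.14 (SE), adjusted p 2.42e-09). AKR1B10, an aldo-keto reductase, read 151, 149.9 and 352 CPM at C4 and 31.0, 34.5 and 31.3 CPM at C5 (log2 change -2.76 ± 0.26 (SE), adjusted p 1.2e-09), and ABCC2, the canalicular conjugate exporter, fell from 34.0 ± 16.6 to 5.92 ± 3.75 CPM on 1 of its probes (log2 change -2.49 ± 0.37 (SE), adjusted p 6.85e-06). The other falls were the second ABCC2 probe, 3 probes of the basolateral exporter ABCC3 and AKR1C1. The falls held 5 probes of 2 transporters that export conjugates from hepatocytes. The hepatocyte marker sum also fell, and the part of cell content in these falls was not tested.

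The p53 targets, genes of arrest, repair and death, gave 10 falls and 2 rises among 30 tested features, with a median of -0.30 (-0.26 with features at the floor set at their bound). The falling share was 33.3%, against 10.8% of all features. The rising share of 6.67% was close to the 5.92% of all features. MDM2, the ubiquitin ligase that holds p53 in check, fell on all 3 probes, 1 of them reading 1179, 1149 and 1784 CPM at C4 and 549.7, 537 and 509 CPM at C5 (log2 change -1.37 ± 0.14 (SE), adjusted p 9.19e-09), and the death receptor FAS read 74.1, 65.8 and 84.3 CPM at C4 and 29.2, 25.1 and 28.0 CPM at C5 (log2 change -1.46 ± 0.19 (SE), adjusted p 8.23e-07). RRM2B, the p53-inducible ribonucleotide reductase subunit, was late-only, from 398 ± 72.0 to 208 ± 8.03 CPM, and BAX, a pore-forming death protein, fell from 377 ± 129 to 207 ± 5.84 CPM (log2 change -0.87 ± 0.16 (SE), adjusted p 0.000183), a call lost without C4 replicate 3 (-0.56) or batch 3 (-0.57). DDB2, a damage-recognition protein, fell from 19.3 ± 6.43 to 6.13 ± 0.912 CPM, and AEN, TP53INP1 and PHLDA3, the last at 0 in every C5 library, were the other falls. Both rises were probes of GDF15, a stress cytokine, 1 of them from 126 ± 18.3 to 241 ± 53.9 CPM, and both were late-only. In the BCL2 family and caspases 1 of 26 tested features rose and 3 fell (median 0.20, 3.85% rising and 11.5% falling, shares close to the 5.92% and 10.8% of all features). BIRC3, an inhibitor of apoptosis induced by NF-kappaB, read 1514, 1641 and 969 CPM at C4 and 3014, 3096 and 3032 CPM at C5 (log2 change 1.15 ± 0.15 (SE), adjusted p 5.04e-07), against falls of BAX, BID and BCL2L1, the survival protein BCL-xL, which went from 705 ± 97.9 to 455 ± 30.03 CPM and lost its call without C4 replicate 3 (-0.52) or batch 3 (-0.57).

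Inflammatory chemokines and cytokines gave 5 rises and 2 falls among 12 tested features, with a median of 0.67. These were 41.7% rising and 16.7% falling, against 5.92% and 10.8% of all features. At C4 against C1, 6 of the 12 had been called falling and 1 rising (16.7% and 15.6% of all features had been), with a median of -1.59. That median is over all 12 features and does not describe each rise, since TNFAIP3 was late-only. CCL20, which attracts CCR6-bearing lymphocytes, read 16.3, 33.3 and 25 CPM at C4 and 139, 194 and 125 CPM at C5 (log2 change 2.58 ± 0.30 (SE), adjusted p 7.81e-08). TNFAIP3, the NF-kappaB inhibitor A20, was late-only on 1 of 2 probes, from 16.7 ± 5.65 to 40.9 ± 6.81 CPM, its call being lost without batch 2 (1.17) or batch 3 (1.17), and CXCL8 and CCL2 were the reversals described above. The fifth rise was CXCL10 at 2.99 (adjusted p 0.0472), with overlapping groups, and the falls were CX3CL1 at -1.24 (adjusted p 0.0239) and IL32 at -0.65 (adjusted p 0.0153). Immediate early genes gave 4 rises and 1 fall among 16 (median 0.40), or 25% and 6.25%, against 5.92% and 10.8% of all features. The rises were DUSP5, a nuclear ERK phosphatase, from 31.3 ± 6.64 to 80.8 ± 16.2 CPM, JUND from 29.5 ± 3.88 to 65.0 ± 13.7 CPM, JUN at 1.14 (adjusted p 0.0483), and KLF2 at 2.04 (adjusted p 0.0204), a call lost without C4 replicate 3 (1.60), C5 replicate 3 (1.34) or batch 3 (0.90) and with counts thinned (1.55). MYC was the fall.

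In the integrated and endoplasmic reticulum stress list 1 of 24 tested features rose and 3 fell (4.17% rising and 12.5% falling, shares close to the 5.92% and 10.8% of all features), with a median of -0.29. TRIB3, a pseudokinase induced by CHOP, fell from 102 ± 12.0 to 52.9 ± 2.99 CPM (log2 change -0.97 ± 0.20 (SE), adjusted p 0.000578), and CALR, the calcium-binding chaperone calreticulin, was late-only, from 1309 ± 76.2 to 855 ± 85.1 CPM (log2 change -0.62 ± 0.13 (SE), adjusted p 0.000665), with its call lost without C5 replicate 3 (-0.56) or batch 3 (-0.54). XBP1 was the third fall. SEL1L, a subunit of the degradation complex of the endoplasmic reticulum, rose from 77.1 ± 26.9 to 126 ± 14.0 CPM, and this call was lost without C4 replicate 2 (0.60), C4 replicate 3 (0.59), C5 replicate 1 (0.64), batch 2 (0.70) or batch 3 (0.60). For proteasome subunits 1 of 34 tested features rose, PSMD4 at 468, 453 and 489 CPM at C4 and 679, 683 and 869 CPM at C5 (log2 change 0.66 ± 0.13 (SE), adjusted p 0.000345), a late-only call lost without C5 replicate 3 (0.53) or batch 3 (0.57). None fell by edgeR, with 1 falling by DESeq2 and 4 at an unadjusted p under 0.05. Proteasome shares were thus 2.94% rising and 0% falling, against 5.92% and 10.8% of all features. For cytosolic ribosomal proteins 0 of 34 were called in either direction by edgeR or DESeq2, against 5.92% rising and 10.8% falling of all features. At an unadjusted p under 0.05, 4 rose and 5 fell. The list median was within 0.03 of 0 on the log2 scale with a sign that depended on the scaling. RPS6, the member of that list with the highest mean CPM, read 1021, 1029.8 and 1046 CPM at C4 and 1012, 989 and 1017 CPM at C5, a log2 change of -0.04 ± 0.12 (adjusted p 0.869).

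Cell cycle genes fell where they were called, 6 of 25 tested features with 0 rising by edgeR or DESeq2 (0 rising at an unadjusted p under 0.05) and a median of -0.60, and all 6 were continuing falls. That was 24% of the list falling, against 10.8% of all features. They were TYMS, RRM2, MKI67, MCM5, MCM3 and CDK1. DESeq2 called 4 features of the list falling, TYMS, RRM2, MKI67 and MCM5, and did not call MCM3 or CDK1. TYMS, thymidylate synthase, read 116, 74.6 and 192 CPM at C4 and 41.9, 35.1 and 54.1 CPM at C5 (log2 change -1.56 ± 0.26 (SE), adjusted p 4e-05), and RRM2, the S-phase ribonucleotide reductase subunit, 21.5, 28.4 and 35.8 CPM at C4 and 7.29, 9.94 and 17.6 CPM at C5 (log2 change -1.30 ± 0.33 (SE), adjusted p 0.00447). MKI67, the proliferation antigen Ki-67, fell by -1.21 (adjusted p 0.00367) and MCM5, a subunit of the replicative helicase, by -1.07 (adjusted p 0.00558), with overlapping MCM5 groups. The MKI67 call was lost without C4 replicate 3 (-0.85) or batch 3 (-0.87) and the MCM5 call without C4 replicate 3 (-0.70) or batch 1 (-0.98). The RRM2 call was lost without batch 2 (-1.16). Clustered histone genes gave 4 rises and 1 fall among 16 tested features (median 0.38). Their shares were 25% rising and 6.25% falling, against 5.92% and 10.8% of all features. HIST1H1B, a linker histone, fell from 36.5 ± 20.5 to 11.2 ± 1.27 CPM, a call lost without C4 replicate 3 (-1.10) or batch 3 (-1.07). HIST3H2BB, an H2B gene, was late-only and read 42.2, 40.6 and 45.9 CPM at C4 and 56.5, 101 and 108 CPM at C5 (log2 change 1.05 ± 0.26 (SE), adjusted p 0.00372). HIST1H2BJ and HIST1H4H rose by 1.30 (adjusted p 0.00994) and 1.52 (adjusted p 0.00817), the second with overlapping groups. The HIST1H2BJ call was lost without C4 replicate 2 (1.11), C5 replicate 3 (0.95) or batch 3 (0.89) and with its probes summed (0.26). The HIST1H4H call was lost without C4 replicate 2 (1.25), C5 replicate 3 (1.09), batch 2 (1.26) or batch 3 (1.30). Of 6 tested features of replication-independent histone variants 1 rose, H3F3C, from 23.6 ± 1.81 to 40.2 ± 2.13 CPM at an adjusted p of 0.0442, and it lost its call without any 1 of the 6 C4 and C5 libraries, at log2 changes between 0.70 and 0.81. With so few features, this 1 call made a rising share of 16.7%, against 5.92% of all features.

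Among the histone deacetylases and sirtuins themselves, 1 of 21 tested features rose and 1 fell (4.76% rising and 4.76% falling, against 5.92% and 10.8% of all features), with a median of 0.07. HDAC3, the catalytic subunit of the NCoR and SMRT corepressor complexes, read 136, 149 and 83.0 CPM at C4 and 257, 258 and 261 CPM at C5 (log2 change 1.09 ± 0.21 (SE), adjusted p 0.000336), continuing from a C1 mean of 52.9 CPM. HDAC8, a class I enzyme that deacetylates the cohesin subunit SMC3, was late-only and read 27.4, 37.8 and 20.6 CPM at C4 and 11.9, 8.90 and 13.0 CPM at C5 (log2 change -1.36 ± 0.36 (SE), adjusted p 0.00703), a call lost without C4 replicate 2 (-1.09), batch 1 (-1.42) or batch 2 (-0.89). HDAC1 and HDAC2 had log2 changes of 0.52 and 0.33 and did not pass. Neuronal genes, silent in most liver cells, gave 4 rises among the 9 features tested of a list with 30 genes in the table, and 0 falls by edgeR or DESeq2 (2 falling at an unadjusted p under 0.05), with a median of 0.68. Of the tested features 44.4% rose, against 5.92% of all features. SCG2, a secretogranin of dense-core vesicles, read 5.19, 11.6 and 3.17 CPM at C4 and 39.2, 57.6 and 52.2 CPM at C5 (log2 change 2.88 ± 0.54 (SE), adjusted p 0.000206), and SYT11, a synaptotagmin, 6.67, 1.4 and 1.27 CPM at C4 and 27.3, 31.4 and 33.3 CPM at C5 (log2 change 3.48 ± 0.76 (SE), adjusted p 0.00131). STX1A, a syntaxin of synaptic vesicle fusion, rose from 26.2 ± 10.5 to 67.2 ± 16.6 CPM, with its call lost without C4 replicate 3 (1.21), C5 replicate 2 (1.11) or batch 1 (1.25). The light neurofilament NEFL rose from 0.75 ± 1.01 to 8.87 ± 4.79 CPM. Its call was lost without C4 replicate 1 (2.90), C4 replicate 2 (2.86), C5 replicate 3 (2.73), batch 1 (3.15) or batch 3 (4.44) and without a filter on low counts (3.25). The other 22 genes of the list did not pass the filter on low counts, which a gene can pass through the group where it is high, so these counts do not describe the list as a whole.

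Cholesterol synthesis gave 6 falls among 26 tested features and 0 rises by edgeR or DESeq2 (0 rising at an unadjusted p under 0.05), with a median of -0.37 (-0.31 with features at the floor set at their bound). Falls made up 23.1% of the list, against 10.8% of all features. SREBF2, the transcription factor of the pathway, was a late-only fall, at -0.80 (adjusted p 0.0392) with overlapping groups. FDPS, farnesyl diphosphate synthase, fell from 44.0 ± 12.5 to 18.9 ± 6.47 CPM and CYP51A1, lanosterol demethylase, from 143 ± 31.1 to 84.0 ± 19.5 CPM, the CYP51A1 call being lost without C4 replicate 2 (-0.57), batch 1 (-0.72) or batch 2 (-0.53). EBP, a sterol isomerase, fell as well, at -0.98 (adjusted p 0.0192), also with overlapping groups. Actin and smooth muscle genes gave 4 falls among 17 and 0 rises by edgeR or DESeq2 (0 rising at an unadjusted p under 0.05), with a median of -0.49, and 3 of the 4 were late-only. In this list 23.5% fell, against 10.8% of all features. CALD1, caldesmon, read 844, 824 and 866 CPM at C4 and 535, 580.3 and 451 CPM at C5 (log2 change -0.69 ± 0.13 (SE), adjusted p 0.000246), TLN1, talin, fell from 119 ± 10.5 to 75.5 ± 12.3 CPM and TPM1, a tropomyosin, from 32.8 ± 7.57 to 13.9 ± 5.43 CPM. The fourth, the myosin light chain kinase MYLK, read 16.3, 2.80 and 23.1 CPM at C4 and 5.47, 0.523 and 2.61 CPM at C5, with overlapping groups. The CALD1 call was lost without batch 3 (-0.58), and the TLN1 call without C4 replicate 3 (-0.60), C5 replicate 2 (-0.55), batch 2 (-0.57) or batch 3 (-0.63). The TPM1 call was lost without C4 replicate 1 (-1.04), C5 replicate 3 (-0.92), batch 1 (-1.10) or batch 3 (-1.03) and the MYLK call without C4 replicate 3 (-1.71) or batch 3 (-1.73). Fibroblast markers moved down in the same libraries, as given above, and their part was not tested. The marker ACTA2 is also a gene of the actin list.

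**Figure D4:**
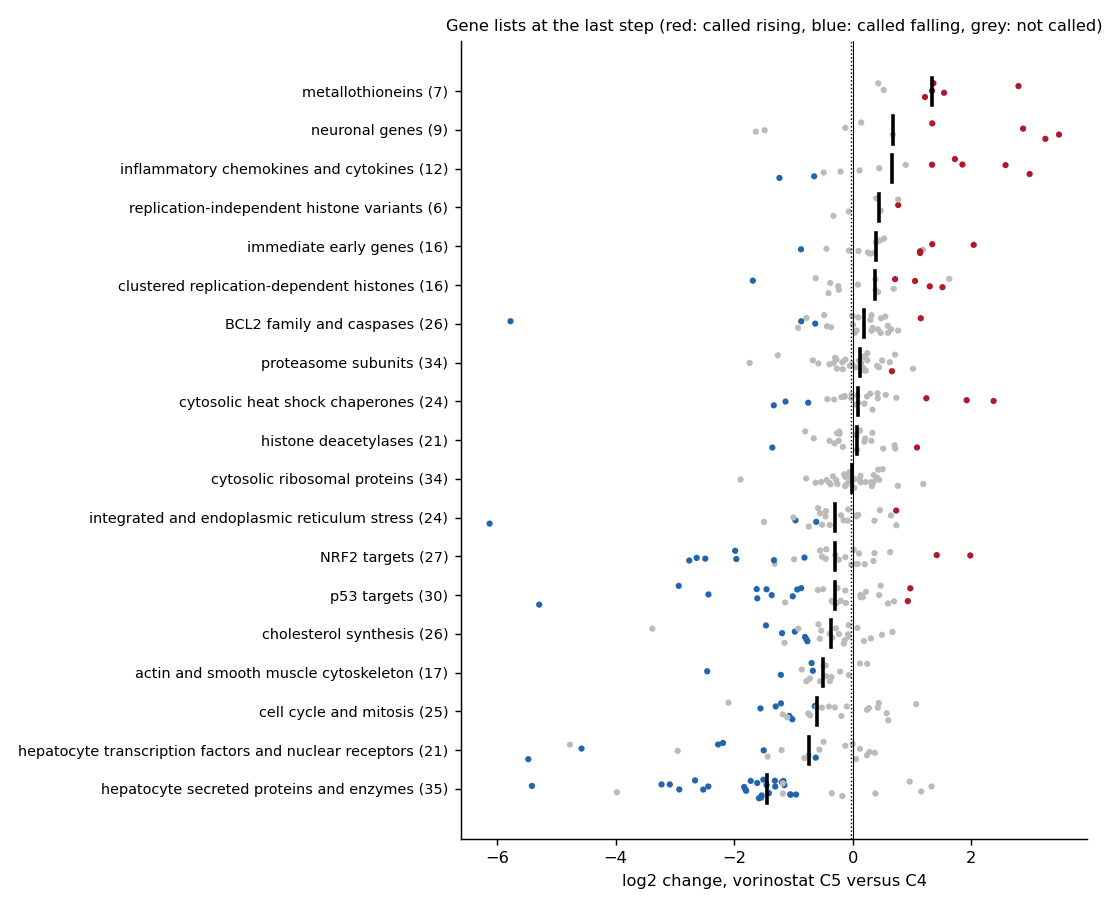
Log2 change from C4 to C5 of each tested feature in the 19 gene lists, ordered by list median (black bars); red points were called rising, blue falling and grey not called, and the dotted line is the median of all 11631 features. The 7 tested features of the metallothionein list lie above 0 with a median of 1.34, and hepatocyte secreted proteins and enzymes have the lowest median, -1.45; the number in parentheses is the features tested.

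Scriptaid, the other hydroxamate on the same plate, was set beside vorinostat in a fit of 30 libraries and 13187 features. Its last step ran from 60 to 94.5 µM, a 1.575-fold rise against the 2.15-fold rise of vorinostat, so the doses were not matched and the difference of the 2 steps describes these concentrations only. In that fit vorinostat had 318 rising and 782 falling features (2.41% and 5.93%) and scriptaid 1624 and 2551 (12.3% and 19.3%), and the steps differed by the same call for 339 features higher (2.57%) and 160 lower (1.21%) with vorinostat. Scriptaid C4 replicate 3 stood apart, with 10223 features of at least 5 counts against 12367 and 12873 in C4 replicates 1 and 2, and PEG10 in place of MTRNR2L12 as the feature with most counts. Without that library, an alternative chosen after seeing the data, there were 279 features higher and 264 lower with vorinostat, 1665 rising and 2301 falling with scriptaid, and 599 and 1267 with vorinostat among 13721 features tested. UGT2B11, IL1R2 and PTCHD4 were among those lower with vorinostat. UGT2B11 read 129.8, 136 and 127 CPM at scriptaid C4 and 122, 121 and 26.6 CPM at scriptaid C5, a step of -0.54 against -4.33 for vorinostat (difference -3.79 ± 0.54 SE, adjusted p 0.000109). IL1R2 stepped by -2.09 with vorinostat and -0.37 with scriptaid (difference -1.71 ± 0.36, adjusted p 0.005), and PTCHD4 by -2.68 and -1.39 (difference -1.29 ± 0.30, adjusted p 0.012). In the other direction MT1E rose with vorinostat by 1.56 and had a scriptaid step of -0.56 (difference 2.12 ± 0.42, adjusted p 0.00301), and LCN2 steps were 1.83 and 0.15 (difference 1.68 ± 0.40, adjusted p 0.0127). HDAC3 rose with both, by 1.09 and 2.38, and the difference passed at an adjusted p of 0.047. Of these 6 differences that of UGT2B11 kept its call under every alternative. The IL1R2 call was lost without replicate 2 (-1.67), the PTCHD4 call without replicate 1 (-1.35), 2 (-1.69) or 3 (-0.84), the MT1E call without replicate 1 (2.2) or 2 (2.39), the LCN2 call without replicate 1 (1.73) or 2 (1.55). The HDAC3 call was lost without replicate 1 (-1.44) or 2 (-1.41), with relative log expression (-1.23) or total-count scaling (-1.4) and without scriptaid C4 replicate 3 (-1.04). The number of differences also depended on single batches: without replicate 1 there were 28 higher and 10 lower features, without replicate 2 there were 22 and 10, and without replicate 3 there were 374 and 276.

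**Figure D5:**
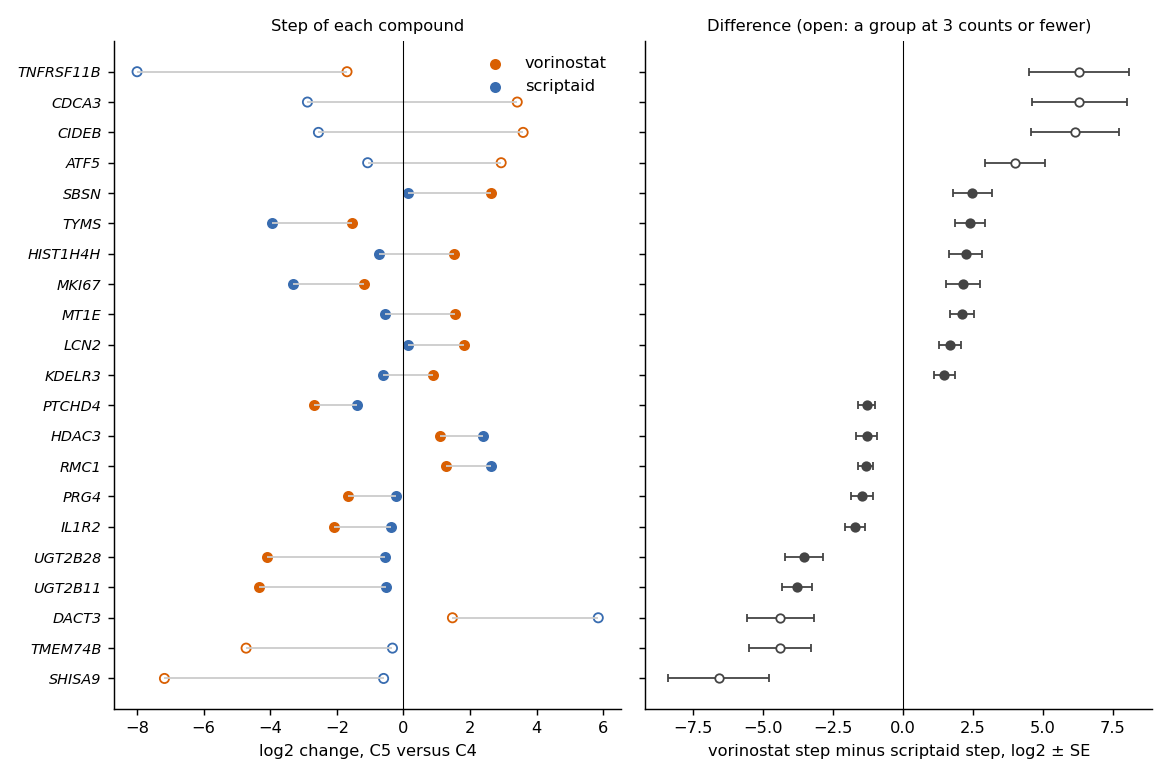
Left, the log2 change from C4 to C5 with vorinostat (10.929 to 23.5 µM, orange) and scriptaid (60 to 94.5 µM, blue) for 21 of the 22 named features whose steps differed; right, the difference with its SE, from 6.30 for TNFRSF11B to -6.58 for SHISA9. Open symbols mark features with 3 counts or fewer in every library of a group, whose fitted size is no measure.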

How the data were processed

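HepaRG cells exposed to vorinostat (15 libraries) or scriptaid (15 libraries) were read by TempO-Seq. The authors deposited raw counts per probe and library, without normalization. The submitters' processing notes name bcl2fastq 2.20.422, fastp 0.23.2, STAR 2.7.10b and DESeq2 1.38.0; the genome build and annotation are not given in the sources used here. The table had 22069 rows, 1 of them with missing values and left out. Of 19470 gene symbols 18807 matched RefSeq (GRCh38.p14), and 2094 had several probes, which were kept apart.

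Counts of the 15 vorinostat libraries were scaled by trimmed mean of M-values, filtered with filterByExpr (11631 features kept) and tested with edgeR 4.0.16 (glmQLFit, glmQLFTest, R 4.3.3), without a batch term. A call required at least a 1.5-fold change and p under 0.05 after Benjamini-Hochberg adjustment. The difference from scriptaid was an interaction contrast over 30 libraries. CPM values use the scaled library size, and a group was at the floor where every library had 3 counts or fewer. A gene with 1 group at the floor was given a bound with that group at 3 counts per library. Floors, and the level that a count of 0 allows, cover counting error only, whereas SD and SE values also hold the spread between libraries. Depth was compared by an exact permutation test, and the scripts were tested on simulated data.

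Replicate numbers stand for HepaRG batches per the labels and so pair the libraries. Deviations from group means correlated at a median of 0.03 (-0.12 to 0.16) over 30 same-batch pairs and -0.01 (-0.11 to 0.09) over 60 different-batch pairs.

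Named features were, among called features averaging at least 5 CPM, the 6 late-only per direction with the largest change, the 5 reversed per direction with the largest smaller change, the 4 continuing per direction, up to 4 called features per gene list by p (or the 1 with the highest mean CPM where none was called), and for the difference from scriptaid 3 per direction plus any named feature called there. The abundant features (at least 100 CPM, 6, 5 and 4 per direction) and the other members of each list that the text names were added after the values were seen. The comparison, its classes and the 19 gene lists were chosen with earlier results of these data known. Alternatives were DESeq2 1.42.0, 3 other scalings, no filter, thinning to the smallest library, summed probes, a 2-fold limit, a batch block, and leaving out each batch or library, 1 scriptaid library included. Results for some genes are not reported here.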

Additional observations from a re-analysis of the deposited data

Results flagged for a closer look

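The last steps of vorinostat (10.929 to 23.5 µM) and scriptaid (60 to 94.5 µM) differed, by the interaction test in edgeR, in 339 features that were higher and 160 that were lower with vorinostat. The doses were not matched.

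Of the 22 features named for this difference, 21 are given as the vorinostat step minus the scriptaid step on the log2 scale. In 7 of them, TNFRSF11B (6.30), CDCA3 (6.30), CIDEB (6.15), ATF5 (4.01), SHISA9 (-6.58), TMEM74B (-4.39) and DACT3 (-4.38), at least 1 group was at 3 counts or fewer in every library, so the fitted size is no measure. Among the others, the difference was positive for SBSN (2.48), TYMS (2.40), HIST1H4H (2.25), MKI67 (2.15), MT1E (2.12), LCN2 (1.68) and KDELR3 (1.48). TYMS fell with both compounds, with steps of -1.54 with vorinostat and -3.94 with scriptaid, and MKI67 had steps of -1.17, not called in this fit of 30 libraries, and -3.33. The difference was negative for UGT2B11 (-3.79), UGT2B28 (-3.54), IL1R2 (-1.71), PRG4 (-1.47), RMC1 (-1.34), HDAC3 (-1.29) and PTCHD4 (-1.29). RMC1 rose with both, by 1.28 with vorinostat and by 2.62 with scriptaid. Without scriptaid C4 replicate 3, the library that stood apart, the calls of TNFRSF11B (5.54), ATF5 (3.39), SBSN (1.86), MKI67 (1.56) and HDAC3 (-1.04) were lost. TYMS read 1991 CPM in that library against 547 and 458 CPM in the other 2 of its group. Of all 22, UGT2B11 alone kept its call under every alternative run.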

How the results depend on the processing

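Of 114 named features, 64 kept their call or lack of one under every alternative and 50 lost the call under at least 1. DESeq2 and the 3 other scalings cost no call, a 2-fold limit 17, thinning 4 of 110, no filter 2, summed probes 2, and the fit of C4 and C5 alone 2 of 100. Leaving out HepaRG batch 1, 2 or 3 cost 15 of 114, 15 of 113 and 34 of 114, and leaving out 1 library of C4 or C5 cost 3 to 17, the most without C4 replicate 3 (17) and C5 replicate 3 (16). Some list members that the text names beside these were not run under the alternatives. The runs of named features without single libraries, and all runs of the named differences from scriptaid, were chosen after seeing the data. The sign turned once, for RPS6 (-0.04), which read 0.014 with counts thinned to the smallest library. Of the 22 differences from scriptaid, 21 lost their call under at least 1 alternative.

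With a 2-fold limit there were 272 rising features, 172 late-only rises, 19 and 52 reversals (fell then rose, rose then fell), and 64 and 336 continuing rises and falls. With C3 in place of C4 as evidence before the last step there were 15 and 68 reversals. The number higher with vorinostat than with scriptaid was 675 without a filter, and DESeq2 gave 693 higher and 268 lower. The fit of C4 and C5 alone, which holds no C1 and so gives no classes, gave 679 rises and 846 falls. With the batch as a replicate block, counts were 693 and 1290 for all calls, 370 and 491 late-only, 51 and 113 reversed, 214 and 565 continuing, and 384 and 199 for the scriptaid difference, and DLL1 was the one named feature that changed its call.

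Leaving out 1 batch or 1 library gave 328 to 666 rises and 752 to 1278 falls, 159 to 399 and 266 to 520 late-only, 26 to 51 and 64 to 116 reversed, and 93 to 190 and 339 to 513 continuing. Leaving out 1 batch gave 22 to 374 and 10 to 276 scriptaid differences, and without scriptaid C4 replicate 3 there were 279 and 264. Without C4 replicate 3 there were 382 rises, 193 and 289 late-only features and 113 continuing rises. Where a count moved, the cause was not tested. C5 libraries held fewer counts than C4 libraries on average, so for features that were already low at C4 a fall could be given only as a bound.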
